A study of Mus musculus with 32 samples.

Results

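Fatty acid oxidation and the targets of PPARα were followed through 34 genes chosen by symbol, of which 33 had a probe set among the 21114 genes of the deposited liver arrays. Hadhb was not analysed here. The livers came from 32 male offspring (C57Bl/6 in the labels, C57Bl/6J in the methods of the study), with 1 array per mouse. Both parents had received either a low-fat (LF) diet with 9% of energy from fat or a high-fat (HF) diet with 45%, from 6 weeks before mating until the end of lactation, and after weaning the offspring of both received the HF diet. The groups are therefore called LF/HF and HF/HF, and hold 7 mice each at 12 weeks of age and 9 mice each at 28 weeks. According to the methods of the study, the LF diet was a standard chow from another maker than the HF diet. The diets of the parents also differed in protein and carbohydrate, so that fat alone cannot be told apart from these. No group shows the liver without the HF diet after weaning. The mice of 28 weeks had eaten it for longer than those of 12 weeks, so that age and time on the diet cannot be told apart. The labels do not give the litter of a mouse, so the p-values below measure the spread between mice and may be too small if mice of a group shared litters.

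In the liver, long-chain fatty acids are attached to coenzyme A, carried into mitochondria as carnitine esters and shortened by repeated cycles of β-oxidation, in which a dehydrogenase, a hydratase, a second dehydrogenase and a thiolase act in turn. Very long chains are shortened first in peroxisomes. PPARα is a nuclear receptor that binds fatty acids and, together with RXR, raises the transcription of many of these genes in mouse liver, above all during fasting and after fatty food. The heterodimer binds a direct repeat of the hexamer AGGTCA with a spacer of 1 base.

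The largest changes of the members concerned the acyl-CoA thioesterases, so the sequences upstream of Acot4 and Acot3 are shown, together with that of Acadl, the third member past the adjusted p between the ages. The 4 genes Acot1 to Acot4 lie side by side on chromosome 12 between 83987861 and 84060400 (GRCm38.p6), with Acot2 first and Acot3 last. Each sequence below holds the 250 bases before the gene's start site in RefSeq (GRCm38.p6), and capitals mark a match to AGGTCANAGGTCA on either strand with at most 2 mismatches.
Acot4, chr12:84038129-84038378, plus strand: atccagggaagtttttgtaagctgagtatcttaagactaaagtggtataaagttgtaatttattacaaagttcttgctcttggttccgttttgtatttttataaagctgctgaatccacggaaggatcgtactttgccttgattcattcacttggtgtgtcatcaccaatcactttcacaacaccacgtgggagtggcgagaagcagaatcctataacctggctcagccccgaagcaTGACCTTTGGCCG
Acot3, chr12:84051894-84052143, plus strand: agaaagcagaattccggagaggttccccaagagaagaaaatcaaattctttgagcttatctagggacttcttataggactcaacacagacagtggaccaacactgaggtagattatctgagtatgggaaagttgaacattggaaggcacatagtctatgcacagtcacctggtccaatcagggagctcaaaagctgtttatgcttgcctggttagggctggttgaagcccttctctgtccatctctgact
Acadl, chr1:66863310-66863559, minus strand: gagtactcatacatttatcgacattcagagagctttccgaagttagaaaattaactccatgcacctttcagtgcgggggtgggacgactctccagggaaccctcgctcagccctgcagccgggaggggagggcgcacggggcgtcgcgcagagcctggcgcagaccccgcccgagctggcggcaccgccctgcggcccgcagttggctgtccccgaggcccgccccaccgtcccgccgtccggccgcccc
In the window of Acot4 the match ends at the last base before the start site and reads as the reverse complement of the repeat, whereas the windows of Acot3 and Acadl hold none. Windows of 300 bases, which also take in 50 bases after the start, were available for 29 of the 34 members. Such a match was present in 4 of their 31 windows (12.9%), those of Acot4, Echs1, Etfa and Slc25a20, and in 3.86% of all 32851 windows. With at most 1 mismatch no member had a match, against 0.554% of all windows. These are matches of letters only, and binding was not measured. The start site of the Acot4 window lies within the annotated span of the gene, which begins at 84037254, and the Acot3 window is the first of 2 listed.

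Values are given as log2 of the normalized intensity, a scale on which the signals of different genes are not compared with each other. The median of all values was 3.12. Between mice of a group, the members varied with an SD of 0.07 (Acaa2) to 1.09 (Pdk4) and a median of 0.19, and 26 of the 33 stayed under 0.30, while the median SD over all genes was 0.22. The hepatocyte marker list had a mean between 12.27 and 12.53 in every mouse, which matches the tissue label. In 3 mice the mean of the skeletal muscle markers stood at 8.66 (LF/HF, 12 weeks, replicate 1), 5.81 (LF/HF, 28 weeks, replicate 8) and 4.14 (HF/HF, 12 weeks, replicate 3), against 2.17 to 2.68 in the other 29 mice, and the counts below are also given without them where that changes the call. The arrays carry names of 2 series, whose meaning is not stated, and values within each series are given where they change a call. A gene is called by the criterion of the study, P below 0.05 before adjustment and a change of more than 1.2-fold either way, from limma over all genes. The adjusted p beside a value is that of Benjamini and Hochberg over all genes. In whole liver, a smaller number of hepatocytes and less RNA per hepatocyte cannot be told apart.

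Averaged over the 32 mice, Ppara stood at 9.22. Among the genes of the carnitine route, Cpt1a, the outer-membrane enzyme that commits long-chain fatty acids to the mitochondria, stood at 9.74, Cpt2 of the inner membrane at 8.40, the carrier Slc25a20 at 8.25, and the acetyl- and octanoyltransferases Crat and Crot at 6.72 and 10.78. The acyl-CoA dehydrogenases for very long, long, medium and short chains, Acadvl, Acadl, Acadm and Acads, stood at 9.30, 9.23, 10.25 and 8.46. These means give the signal of each gene and set no order between genes.

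Of the later steps of the cycle, Hadha, the α-subunit of the trifunctional protein, stood at 10.28, Hadh, the short-chain hydroxyacyl-CoA dehydrogenase, at 10.25, the short-chain hydratase Echs1 at 9.19 and the thiolase Acaa2 at 11.19. The isomerases Eci1 and Eci2 and the 2,4-dienoyl-CoA reductases Decr1 and Decr2, which prepare unsaturated chains, stood at 7.85, 9.02, 9.09 and 9.48. Etfa and Etfb, the subunits of the flavoprotein that accepts the electrons, stood at 9.16 and 10.13, and Etfdh, which hands them to ubiquinone, at 9.88.

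In the peroxisome, the bifunctional enzymes Ehhadh and Hsd17b4 stood at 9.40 and 10.18, the thiolases Acaa1a and Acaa1b at 7.70 and 10.04, the membrane transporter Abcd3 at 10.29, and Pex11a, a factor of peroxisome division, at 7.71. The thioesterases Acot1 to Acot4 stood at 5.43, 6.46, 4.17 and 6.49, Vnn1 at 7.72 and Pdk4 at 3.99. Vnn1 encodes the pantetheinase vanin-1 and Pdk4 a kinase of the pyruvate dehydrogenase complex.

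First, it was asked whether the diet of the parents changed the members at 12 weeks of age. None of the 33 members was called, where 2.92% of all genes met the criterion, and none had P below 0.05 before adjustment, which 4.73% of all genes had. HF/HF mice had the higher mean for 18 members and the lower for 15, and the median log2 difference was 0.03, against 0.0004 over all genes, of which 50.2% were higher. For Ppara itself, the receptor, the LF/HF values ran from 8.83 to 9.55 around a median of 9.29, and the HF/HF values from 8.57 to 9.40 around 9.05. The groups overlapped almost fully, and the difference was −0.15 ± 0.11 (SE, n = 7 per group; limma, adjusted p = 0.999). Cpt1a ran from 9.35 to 10.09 in LF/HF, with a median of 9.82, and from 9.38 to 9.99 in HF/HF, with a median of 9.60, a difference of −0.13 ± 0.10 (limma, adjusted p = 0.999). Cpt1a had opposite signs in the array-name series, at 0.09 and −0.36 on the log2 scale, and in the second of them it met the criterion.

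The smallest p at 12 weeks belonged to Ehhadh, which ran from 9.03 to 9.33 in LF/HF, with a median of 9.18, and from 9.08 to 10.22 in HF/HF, with a median of 9.29. Replicate 3 of HF/HF, 1 of the mice with muscle markers, held the value of 10.22, and the next mouse stood at 9.45. The difference was 0.22 ± 0.13 with all mice (limma, adjusted p = 0.999) and 0.08 without that mouse. The next smallest p belonged to Decr2, the peroxisomal reductase (−0.21 ± 0.13), Acot4 (0.33 ± 0.22) and Echs1 (0.11 ± 0.08), none of which met the criterion. Decr2 met it when replicate 1 or 2 of LF/HF or replicate 6 of HF/HF was left out, at −0.28, −0.27 and −0.27, and Acot4 met it without replicate 6 of LF/HF, at 0.46. Replicate 3 of HF/HF was also the highest of its group for 13 members, and for the fasting hormone Fgf21 (6.01), the ω-hydroxylase Cyp4a14 (9.61) and the aldehyde dehydrogenase Aldh3a2 (10.55). The same mouse was the lowest of its group for 2 members, Ppara (8.57) among them. It was also the lowest for other PPARα targets, such as Angptl4 (7.26), Acsl1 (10.76), Mgll (7.07) and Retsat (8.80).

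At 28 weeks of age the parental diet again gave 0 of 33 members by the criterion, where 2.15% of all genes met it, and 0 with P below 0.05 before adjustment, which 5.13% of all genes had. The mean was higher in HF/HF for 12 members and lower for 21, with a median log2 difference of −0.05, against −0.0036 over all genes, of which 48.7% were higher. Ppara ran from 9.02 to 9.35 in LF/HF, with a median of 9.21, and from 8.90 to 9.58 in HF/HF, with a median of 9.37, and differed by 0.08 ± 0.10 (SE, n = 9 per group; limma, adjusted p = 0.98). Cpt1a ran from 9.47 to 9.90 around a median of 9.69 and from 9.5 to 10.04 around 9.82, respectively, and differed by 0.11 ± 0.09 (limma, adjusted p = 0.95). Neither pair of groups was separated.

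The smallest p at 28 weeks was that of Etfdh. Its values ran from 9.73 to 10.09 in LF/HF, with a median of 9.97, and from 9.69 to 10.04 in HF/HF, with a median of 9.79, which is a difference of −0.12 ± 0.06 (limma, adjusted p = 0.94). The widest difference was that of Acot3, −0.62 ± 0.32 (limma, adjusted p = 0.94). Acot3 met the criterion when replicate 4, 6 or 7 of LF/HF or replicate 1 or 2 of HF/HF was left out, with values of −0.73 to −0.85, and in 1 of the array-name series (−0.88) but not in the other (−0.21). Abcd3 differed by −0.14 ± 0.07, and Acadl by −0.10 ± 0.06, with −0.20 and 0.00 in the array-name series.

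The precision of these comparisons can be read from their intervals. The 95% interval of the diet difference lay wholly within 1.2-fold in either direction for 15 of the 33 members at 12 weeks and for 18 at 28 weeks, compared with 26.3% and 38.4% of all genes. For the thioesterases, Pdk4 and Vnn1 the intervals were the widest. The interval of Acot3 at 28 weeks, for example, reached from −1.28 to 0.04 on the log2 scale.

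**Figure D1:**
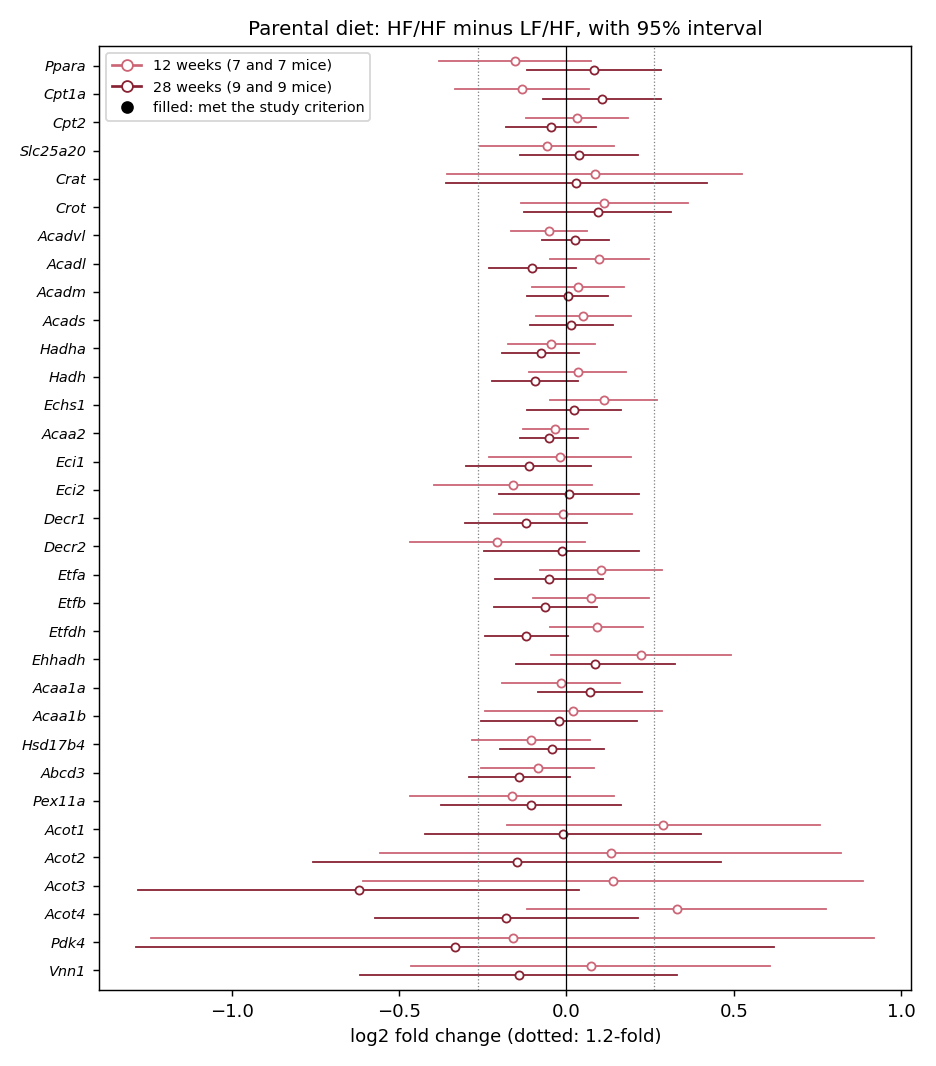
Difference between HF/HF and LF/HF mice for each of the 33 measured members, as log2 fold change with its 95% interval (horizontal axis; vertical axis, members by role), at 12 weeks (light) and 28 weeks (dark). No point is filled, since no member met the criterion, and the intervals are widest for Pdk4 and Acot3.

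The effect of the parental diet was then compared between the ages. No member met the criterion for a difference between the diet effects, where 4.19% of all genes did. The diet difference was higher at 28 than at 12 weeks for 9 of the 33 members and lower for 24, while it was higher for 49.2% of all genes. Etfdh (−0.21 ± 0.09) and Acadl (−0.20 ± 0.10) had P below 0.05 before adjustment, as had 4.78% of all genes, but stayed under 1.2-fold, and their adjusted p was 0.97 (limma). Cpt1a (0.24 ± 0.13) and Acot4 (−0.51 ± 0.29) followed. Cpt1a met the criterion without replicate 2 of LF/HF or replicate 3 or 4 of HF/HF at 12 weeks or replicate 9 of HF/HF at 28 weeks (0.28 to 0.32), and Acot4 without replicate 6 of LF/HF at 12 weeks (−0.64) or replicate 2 of HF/HF at 28 weeks (−0.62). Ppara (0.24 ± 0.15 with all mice) also met it without replicate 2 of LF/HF at 12 weeks (0.30), and Acot3 (−0.76 ± 0.49 with all mice) without replicate 2 of HF/HF at 28 weeks (−0.99). Without the 3 mice with muscle markers, Cpt1a was the 1 member that met it, at 0.30. Within the first array-name series Etfa (−0.31) and Etfdh (−0.27) met it, and within the second Cpt1a (0.46). All 4 thioesterases had a higher mean in HF/HF at 12 weeks and a lower mean at 28 weeks, and none of these 8 differences passed the criterion. For Acot1 the means at 28 weeks were 5.51 in HF/HF and 5.52 in LF/HF. As the 4 genes are close paralogs, their probe sets may share signal.

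Over 11 genes of the dusk phase of the clock, HF/HF minus LF/HF gave a mean log2 difference of −0.52 at 12 weeks, with all 11 genes lower, of which 3 (Dbp, Per1 and Usp2) were called, where 1.47% of all genes were called lower. Of 4 dawn-phase genes, 3 had the higher mean and Npas2 was called higher, where 1.45% of all genes were. The mean difference over that list was 0.37. At 28 weeks the mean difference of the dusk-phase genes was 0.03. The part of these genes in the diet differences of the members was not tested.

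Next, the mice of 28 weeks were compared with those of 12 weeks within each diet group, where more members differed. In LF/HF, 6 of 33 members were called (18.2%), all of them higher at 28 weeks, where 7.22% of all genes were called in either direction and 3.31% were called higher. These were Acot3, Acot4, Acadl, Acaa1b, Ehhadh and Vnn1. Of these, 3 members also passed the adjusted p, against 0.786% of all genes. In total 27 members had the higher mean at 28 weeks, as had 53.3% of all genes, with a median log2 difference of 0.13 against 0.01 over all genes.

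Acot3, which in the mouse encodes a peroxisomal thioesterase that releases free fatty acids from long-chain acyl-CoA, showed the largest difference. In LF/HF its values ran from 2.48 to 4.03 at 12 weeks, with a median of 3.08, and from 4.15 to 6.34 at 28 weeks, with a median of 5.27, so that every older mouse was above every younger one, a separation found in 0.332% of all genes in either direction and in 0.189% in this one. No other member was separated in this way. The mean rose from 3.28 ± 0.68 (SD, n = 7) to 5.11 ± 0.81 (SD, n = 9), a log2 difference of 1.83 ± 0.35 (SE) (limma, adjusted p = 0.0045). The values at 12 weeks lie near the median of all values on the arrays, and how much of them is background was not measured, so no linear fold is given. Within the array-name series the difference was 2.06 and 1.58.

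Acot4, whose mouse product is a peroxisomal thioesterase of dicarboxylic acyl-CoA, ran from 5.29 to 6.69 (median 5.62) at 12 weeks and from 6.32 to 7.74 (median 6.74) at 28 weeks. The groups overlapped. The difference was 1.05 ± 0.21 or 2.06-fold (limma, adjusted p = 0.0072), with 1.18 and 0.90 in the array-name series. The neighbours Acot1 (0.35 ± 0.22), a cytosolic enzyme, and Acot2 (0.62 ± 0.32), its mitochondrial counterpart, were not called. The 4 genes are close paralogs, so signal shared between their probe sets cannot be told apart here. Without the mice with muscle markers Acot1 was called as well, which raised the count to 7 members.

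Acadl ran from 8.85 to 9.24 (median 9.13) at 12 weeks and from 9.08 to 9.52 (median 9.35) at 28 weeks, a difference of 0.28 ± 0.07 or 1.21-fold (limma, adjusted p = 0.041). As its fold change was just over the threshold, Acadl was no longer called without replicate 5 or 7 at 12 weeks or replicate 1 or 5 at 28 weeks (0.24 to 0.26), nor after cyclic loess (0.26), and it was 0.23 and 0.28 in the array-name series. Hadh was next in order of p and differed by 0.22 ± 0.07, which is under the fold threshold (limma, adjusted p = 0.12).

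Of the peroxisomal members, Acaa1b rose from 9.84 ± 0.30 to 10.20 ± 0.22, by 0.35 ± 0.12 (limma, adjusted p = 0.19), and Ehhadh from 9.16 ± 0.11 to 9.46 ± 0.22, by 0.30 ± 0.12 (limma, adjusted p = 0.30). Vnn1, a known PPARα target, rose from 7.40 ± 0.41 to 8.01 ± 0.67, by 0.61 ± 0.25 (limma, adjusted p = 0.29). These 3 genes passed the criterion of the study but not the adjusted p, and their groups overlapped. Without replicate 7 at 12 weeks, the lowest mouse for 16 members, the calls of Acadl, Acaa1b (0.26) and Vnn1 (0.53) were lost and 3 members were left. Vnn1 was also lost without replicate 5 at 28 weeks (0.47), and in neither array-name series was it called. The first series gave 2 members, Acot3 and Acot4, and the second gave 6, with Pdk4 in place of Vnn1. Pdk4 was high in the mice with muscle markers and was not called without them.

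In HF/HF, 3 of 33 members were called (9.09%), all higher at 28 weeks, where 4.10% of all genes were called in either direction and 1.76% higher. The mean was higher at 28 weeks for 27 members and for 51.2% of all genes. Acot3 ran from 2.88 to 4.11 (median 3.37) at 12 weeks and from 3.52 to 6.31 (median 4.25) at 28 weeks, with overlap between the groups. Its difference was 1.07 ± 0.35 (limma, adjusted p = 0.40), again from values at 12 weeks near the median of all values. Acot4 rose by 0.54 ± 0.21 (limma, adjusted p = 0.50) and Acaa1b by 0.31 ± 0.12 (limma, adjusted p = 0.53).

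None of the members passed the adjusted p in HF/HF, where 0.0474% of all genes did. In the array-name series, Acot3 differed by 1.72 and 0.50 and Acot4 by 0.89 and 0.17, and neither was called in the second, whereas Acaa1b was called in the second (0.44) and not in the first (0.23). Hsd17b4 differed by 0.21 ± 0.08 (limma, adjusted p = 0.53), which is under the fold threshold, but it was called within the second series (0.32). Without the mice with muscle markers Ehhadh was called as well (0.30, against 0.16 with all mice), which made 4 members. Leaving out replicate 4 at 12 weeks, or replicate 9 at 28 weeks, brought the count to 5 members, in both cases with Ppara among them, which with all mice differed by 0.23 ± 0.11 (limma, adjusted p = 0.66). In the same comparison the dusk-phase clock genes had a mean difference of 0.67, and 7 of the 11 were called higher, where 1.76% of all genes were. Of the 4 dawn-phase genes, 3 (Arntl, Npas2 and Clock) were called lower, with a mean difference of −0.66 over the list. In LF/HF the mean difference with age was 0.12 for the dusk-phase and −0.27 for the dawn-phase genes, with no call. The age differences of Acot3 in the 2 diet groups, 1.83 and 1.07, were not shown to differ from each other (−0.76 ± 0.49; limma, adjusted p = 0.97).

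**Figure D2:**
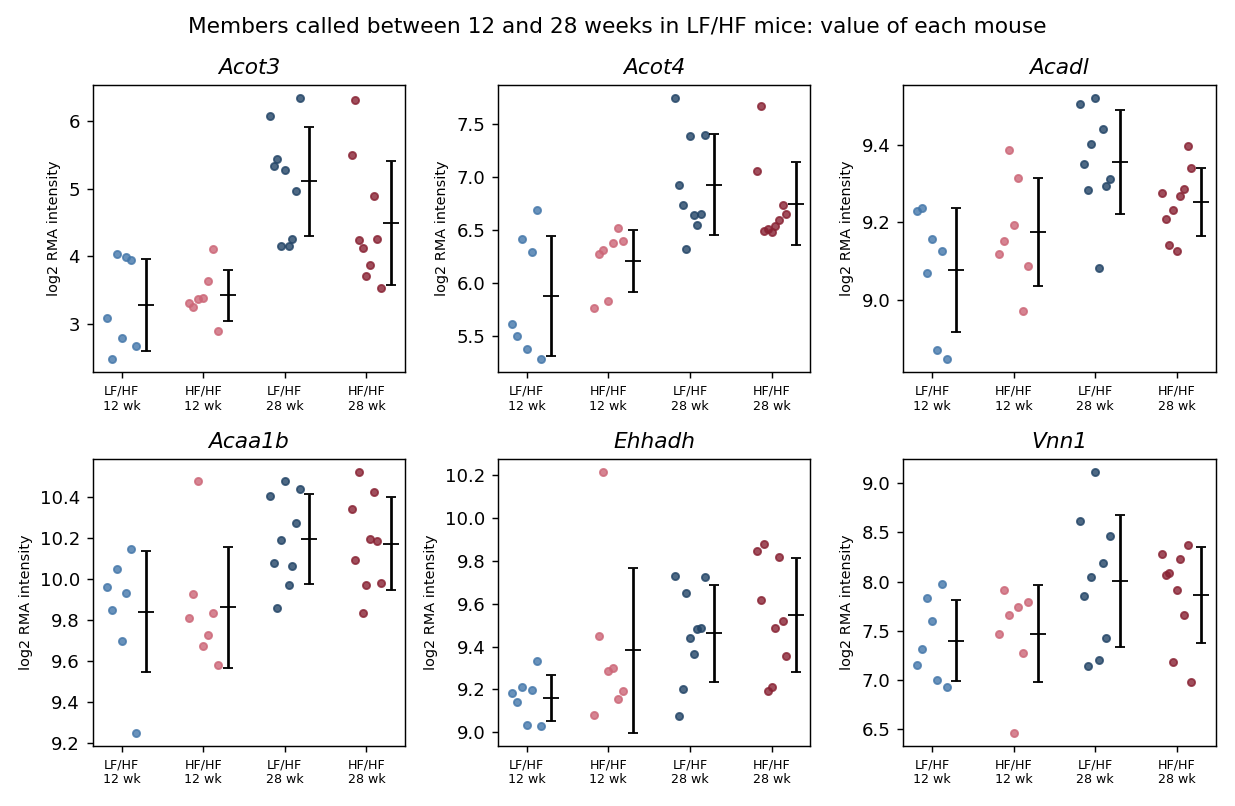
Value of each mouse for the 6 members called between 12 and 28 weeks in LF/HF mice (vertical axes, log2 RMA intensity, not starting at 0; horizontal axes, the 4 groups), with the group mean and SD as a black bar. In Acot3 every LF/HF mouse of 28 weeks lies above every LF/HF mouse of 12 weeks, and 1 HF/HF mouse of 12 weeks stands at 10.22 for Ehhadh.

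By role, the age differences were spread unevenly. The 6 members listed under the peroxisome all had a higher mean at 28 weeks in both diet groups, with a median of 0.17 in LF/HF and 0.19 in HF/HF. The 4 thioesterases were likewise higher in both, with medians of 0.83 and 0.44. Of all genes, 53.3% in LF/HF and 51.2% in HF/HF had the higher mean. Decr2, a peroxisomal enzyme listed with the reductases, had the lower mean at 28 weeks in LF/HF (9.51 against 9.56). Among 26 other peroxisomal genes, 13 were higher and 13 lower in LF/HF, and 16 and 10 in HF/HF. The 5 genes of the carnitine route had medians of 0.02 and 0.11 with no call, and Crot had the lower mean at 28 weeks in both groups (−0.19 ± 0.12 and −0.21 ± 0.12).

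Of the acyl-CoA dehydrogenases, Acadvl, Acadm and Acads differed by −0.06 to 0.16 in LF/HF and were not called. Neither were Hadha (0.04 ± 0.06), Echs1 (0.14 ± 0.07) and Acaa2 (0.07 ± 0.05), nor any of the isomerases and reductases, which differed by −0.05 (Decr2) to 0.13 (Decr1). Of the electron transfer genes, Etfa, Etfb and Etfdh had higher means at 28 weeks in LF/HF (median 0.11), whereas in HF/HF 1 was higher and 2 were lower, with no call.

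**Figure D3:**
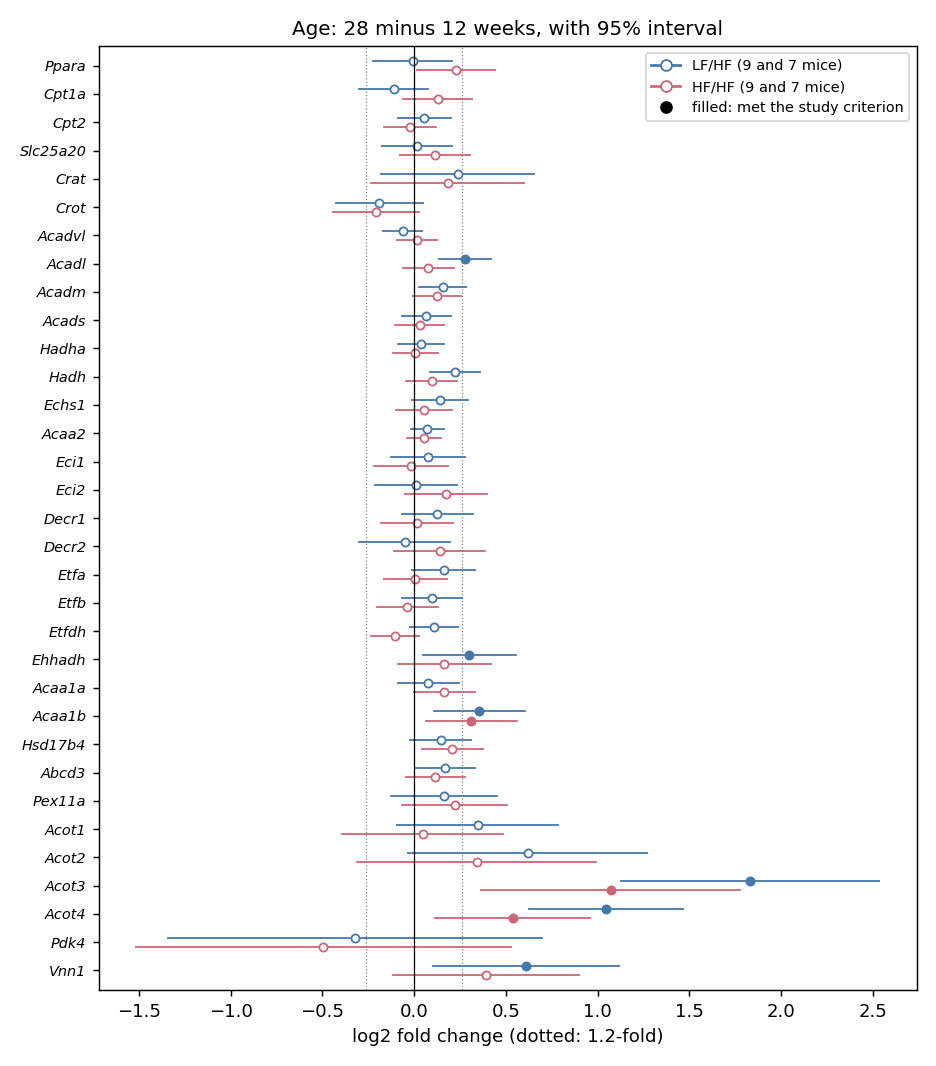
Difference between 28 and 12 weeks for each of the 33 measured members, as log2 fold change with its 95% interval (horizontal axis; vertical axis, members by role), in LF/HF (blue) and HF/HF (red) mice. Filled points met the criterion, 6 in LF/HF and 3 in HF/HF, and all of them lie to the right of 0.

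Over all members, the mean value per mouse was 8.55 ± 0.16 (SD) in LF/HF and 8.57 ± 0.13 in HF/HF at 12 weeks (n = 7 each), and 8.75 ± 0.15 and 8.69 ± 0.13 at 28 weeks (n = 9 each). The ranges of all 4 groups overlapped. The difference between the ages, 0.21 in LF/HF and 0.13 in HF/HF, compares with 0.00 for the mean over all genes in both, and the difference between the diets was 0.02 at 12 weeks and −0.06 at 28 weeks. The 10 genes of the lipogenesis list all had higher means at 28 weeks in each diet group, with 3 called in each and a mean difference of 0.37 in LF/HF and 0.38 in HF/HF. Of the 9 genes of the fasting list, 4 had the higher and 5 the lower mean in each. Their mean difference was −0.21 in LF/HF and −0.14 in HF/HF, and their median −0.05 and −0.0012. G6pc and Igfbp1 were called lower in LF/HF and Igfbp1 in HF/HF. All 9 Kupffer cell markers had lower means at 28 weeks, with a mean difference of −0.26 and 1 called in LF/HF and −0.36 and 5 called in HF/HF. The same held for all 7 endothelial markers, at −0.29 with 2 called and −0.17 with 1 called. Of the 7 hepatocyte markers, 6 had the lower mean at 28 weeks in LF/HF, with a mean difference of −0.10 and Hnf4a called lower. In HF/HF 5 of them were lower, with a mean difference of −0.03 and no call. For comparison, 3.31% of all genes were called higher and 3.92% lower in LF/HF. In HF/HF, 1.76% of all genes were called higher and 4.10% in either direction. The part of these lists in the values of the members was not tested.

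Further genes of the pathway outside the members were taken from 3 lists. Of 26 other PPARα targets and partners, 4 were higher and 3 lower with age in LF/HF by the criterion, where 3.31% and 3.92% of all genes were. The 4 were Cyp4a10, Cyp4a14, Cd36 and Aldh3a2, and the 3 were Angptl4, Rxra and Txnip. Whatever the size, 12 of the 26 had the higher and 14 the lower mean, with a median log2 difference of −0.01. Cyp4a14, a microsomal ω-hydroxylase, ran from 5.14 to 8.04 (median 7.48) at 12 weeks and from 8.06 to 10.82 (median 10.13) at 28 weeks in LF/HF, without overlap, and rose by 2.70 ± 0.47 (limma, adjusted p = 0.002). In HF/HF it rose by 1.59 ± 0.47 (limma, adjusted p = 0.33). Aldh3a2, which oxidizes fatty aldehydes, rose by 0.76 ± 0.12 (limma, adjusted p = 0.00098) and by 0.45 ± 0.12 (limma, adjusted p = 0.27). The third gene past the adjusted p was Cyp4a10, at 1.37 ± 0.26 in LF/HF. The Cyp4a genes are close paralogs, for which shared probe signal is likewise uncertain.

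At 12 weeks, 3 of these 26 genes were higher in HF/HF (Cyp4a10, Cyp4a31 and Cyp4a32) and 3 were lower (Angptl4, Txnip and Mgll), where 1.45% of all genes were higher and 1.47% lower. Cyp4a32 differed by 0.76 ± 0.22 (limma, adjusted p = 0.89) and Txnip, an inhibitor of thioredoxin, by −0.51 ± 0.14 (limma, adjusted p = 0.89). Cyp4a14 differed by 0.95 ± 0.50 and was not called. At 28 weeks Rxra, the partner of PPARα, was the 1 gene of these 26 that was called, where 2.15% of all genes were. Rxra was higher by 0.30 ± 0.12 (limma, adjusted p = 0.94), but was not called without replicate 7 of LF/HF (0.22).

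Of 26 other peroxisomal genes, Acox3, Nudt7 and Pex26 were called lower in HF/HF at 12 weeks, where 1.47% of all genes were. None was called at 28 weeks, where 2.15% of all genes were. Nudt7 was not called without replicate 3 of HF/HF (−0.26). Acox3, an acyl-CoA oxidase, had the smallest p (−0.39 ± 0.10; limma, adjusted p = 0.84). It differed by the same size with age in LF/HF (−0.39 ± 0.10; limma, adjusted p = 0.041). Both differences use the same LF/HF mice of 12 weeks and are not independent. Abcd2, a peroxisomal transporter, rose with age in LF/HF by 1.15 ± 0.29 (limma, adjusted p = 0.051). Of 27 other mitochondrial genes, Acss1, an acetyl-CoA synthetase, was the 1 called at 12 weeks (−0.47 ± 0.22), where 2.92% of all genes were called. That call was lost without the mice with muscle markers (−0.21), and also without replicate 1 (−0.18) or 6 of LF/HF or replicate 2, 4, 5 or 7 of HF/HF (−0.43 to −0.46). Acot13, a mitochondrial thioesterase, rose with age in LF/HF by 0.50 ± 0.11 (limma, adjusted p = 0.013).

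Pdk4, the kinase that shuts the pyruvate dehydrogenase complex and a PPARα target that is also abundant in muscle, varied most of all members. It stood at 8.44, 5.95 and 5.90 in the 3 mice with muscle markers, in the order of their marker means, and between 2.79 and 4.61 in the other 29 mice. The SD within groups was 1.09 with all mice and 0.45 without these 3. No comparison called Pdk4 with all mice, and its difference between the diets was −0.16 ± 0.53 at 12 weeks and −0.33 ± 0.47 at 28 weeks. Within the second array-name series Pdk4 was called for the diet at 28 weeks (−0.88) and for age in LF/HF (0.81, against −0.32 with all mice). By its values, that series holds replicate 8 of LF/HF at 28 weeks, the mouse with muscle markers at 5.95. Without the 3 mice with muscle markers, and over both series, no comparison called Pdk4.

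**Figure D4:**
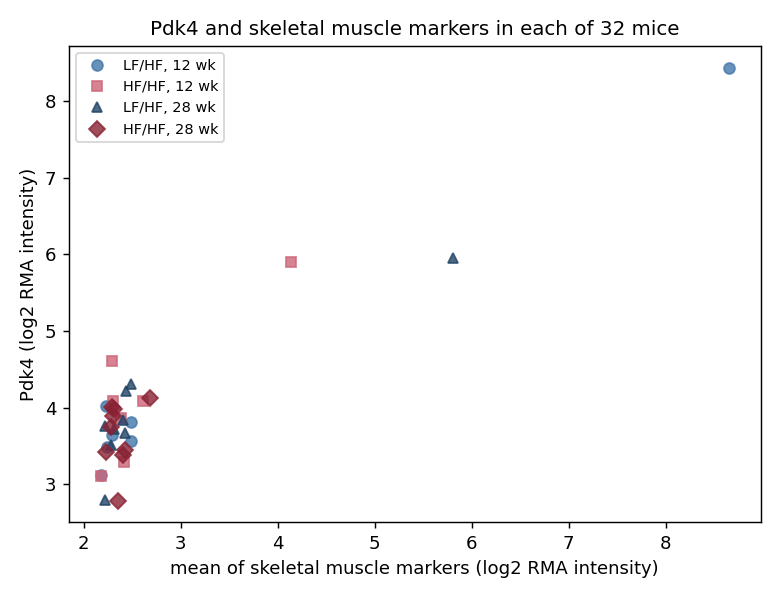
Pdk4 (vertical axis) against the mean of the skeletal muscle markers (horizontal axis), both as log2 RMA intensity, for each of the 32 mice, with a symbol for each group. The 3 mice with a marker mean over 4 hold the 3 highest values of Pdk4.

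Finally, it was examined how the members varied together between mice of the same group, using the deviation of each value from its group mean in the 32 mice. As a description, 15 of the 33 members had a Pearson r over 0.5 with the mean of the other members and the median r was 0.48, while over all genes the 5th and 95th percentiles of this r were −0.33 and 0.31. The closest were Acaa1b (0.79), Hadha (0.78) and Crat (0.77), and Echs1 was the 1 member with an r below 0 (−0.08). Outside the members, the genes nearest to the members' mean were Aldh3a2 (0.80), Hsdl2 (0.77), Cyp4a14 (0.75), Ech1 (0.71) and Vldlr (0.70).

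The r of Ppara with that mean was 0.08. Against each of the 32 other members, with p-values from a permutation test within groups (two-sided, adjusted over the 32 relations), 7 relations passed by Pearson's r and 8 by Spearman's rho. Among the 7, Ppara was positively related to Decr2 (r = 0.60, rho = 0.56; permutation test, P = 0.00219 and 0.00487, adjusted p = 0.017 and 0.037) and Acot3 (r = 0.54, rho = 0.57; permutation test, P = 0.00056 and 0.00027, adjusted p = 0.016 and 0.0086). The other 5 relations were negative, with Crot (r = −0.60, rho = −0.53; permutation test, P = 0.00175 and 0.00543, adjusted p = 0.017 and 0.037), Acadl (−0.55), Acads (−0.50), Etfb (−0.50) and Etfa (−0.49). For comparison, the 5th and 95th percentiles of the r with Ppara over all genes were −0.43 and 0.45.

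Without the 2 mice farthest from the median of Ppara, r was 0.51 for Decr2, 0.56 for Acot3, −0.49 for Crot and −0.41 to −0.46 for the other 4. Centred within group and array-name series as well, r was 0.58, 0.52 and −0.60 for these 3 and −0.47 to −0.56 for the other 4, and 1 relation, that with Acot3, passed the adjusted p. For Crot r was −0.85 in the first series and −0.22 in the second. Cpt1a (r = 0.49, rho = 0.51) passed by rho only, with 0.25 and 0.85 in the series, and its r was 0.71 without the 2 farthest mice. Without the mice with muscle markers, 11 relations passed.

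Ppara was also set against 4 lists of other states, a comparison chosen after the values were seen. Across the 32 mice its r with the mean of the 11 dusk-phase clock genes was 0.78 (rho = 0.78; permutation test, P = 1e-05 for both, the smallest that these permutations can give, adjusted p = 4e-05 over 4 lists) and −0.66 with that of 4 dawn-phase genes (rho = −0.71; permutation test, P = 0.00099 and 0.00013, adjusted p = 0.00198 and 0.00026). With lipogenesis r was 0.49 (rho = 0.42; permutation test, P = 0.00384 and 0.0244, adjusted p = 0.00512 and 0.0325), and with the fasting list −0.22 (rho = −0.04; permutation test, P = 0.296 and 0.843, adjusted p the same). The dusk relation was 0.76 without the 2 farthest mice, and 0.86 and 0.70 in the array-name series, whereas that with lipogenesis was 0.69 and 0.19. The r of the members' mean with the dusk list was 0.03.

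**Figure D5:**
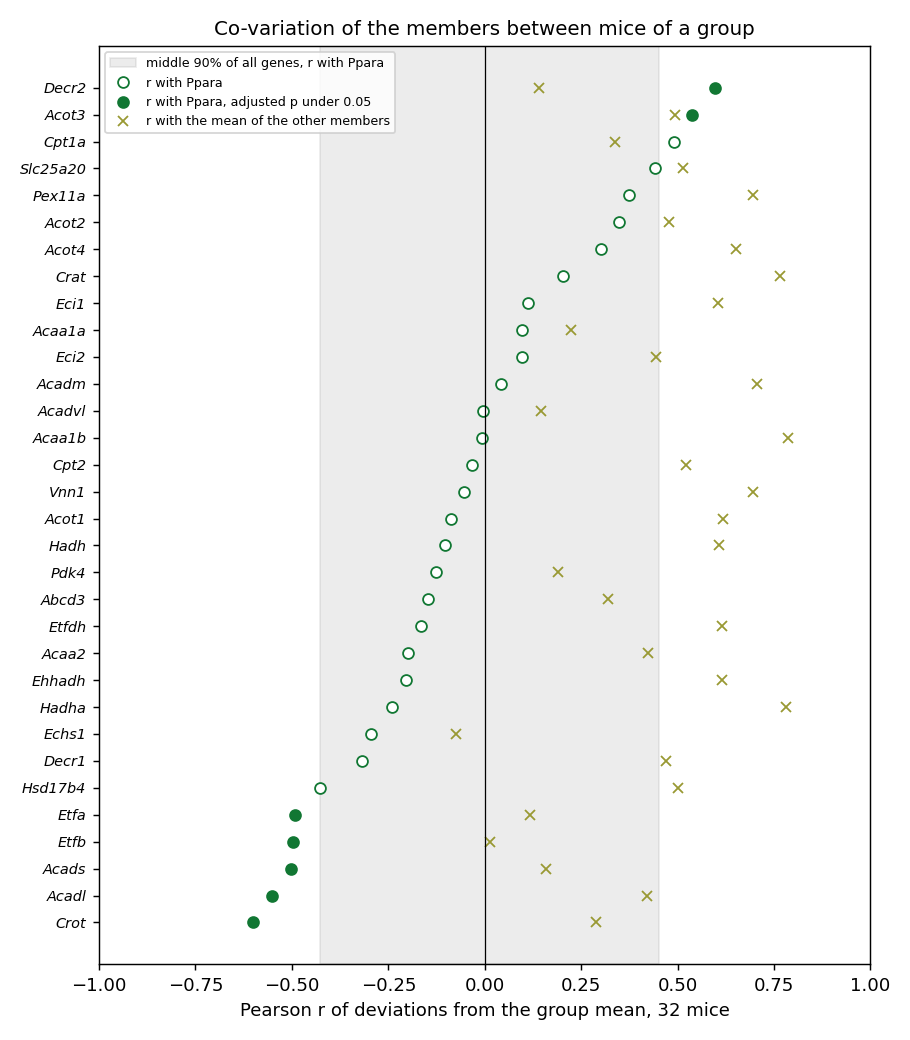
Pearson r of each of the 32 other members with Ppara (circles, filled where the adjusted p was under 0.05) and with the mean of the other members (crosses) on the horizontal axis, from deviations from the group mean in 32 mice; the vertical axis lists the members by their r with Ppara and the grey band runs from the 5th to the 95th percentile of r over all genes. Of the 7 filled circles, 5 lie at −0.49 or below and 2 at 0.54 or above, while nearly all crosses lie to the right of 0.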

How the data were processed

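Liver RNA of 32 mice was measured on the Mouse Gene 1.1 ST array of Affymetrix. The authors normalized the signals by the robust multichip average (RMA) in the MADMAX pipeline, and deposited intensity values on the linear scale for 21115 probe sets. Tool versions and genome build are not given in the sources used here. Columns with the authors' own fold changes and p-values were not used. Groups and replicate numbers come from the labels. A second deposited table held the same values (largest difference 7.15e-10 on the log2 scale) under array names in 2 series, which were tested as a block and alone, without knowing what they stand for.

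The log2 was taken with no filter on level, and with 1 probe set per gene limma 3.58.1 (R 4.3.3) was fitted with 1 mean per group over 32 arrays and eBayes with trend. Although the study names a paired test, no pairs are given, so the main fit had no block. Correlations used 100000 permutations within groups. The fits were tested on simulated data.

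The members and lists were chosen with earlier results of these data known. Named were Ppara, Cpt1a, Cyp4a14, the 4 members of smallest p per comparison, the 3 of highest and 2 of lowest mean, the 4 of largest SD, up to 2 genes of smallest p per further list and comparison, and the 5 genes nearest to the members' mean, with all called members and other genes where a count was small, chosen after their values were seen. Sequences are from RefSeq. The number of mice limits the precision.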

Additional observations from a re-analysis of the deposited data

Results flagged for a closer look

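Of 136 groups of values (each of the 33 members and their mean in each of the 4 groups of mice), 12 held 1 mouse far from the others of its group by Dixon's criterion, for which the chance in any 1 group is about 0.05. Pdk4 was at 8.44 in replicate 1 of LF/HF at 12 weeks (the next mouse at 4.02) and at 5.95 in replicate 8 of LF/HF at 28 weeks (next at 4.31), both mice with muscle markers. Replicate 3 of HF/HF at 12 weeks, the third such mouse, was high for Ehhadh (10.22, next at 9.45), Acaa1b (10.48, next at 9.93) and Acadm (10.40, next at 10.20). In the same group replicate 2 was high for Cpt2 (8.57) and replicate 7 low for Acaa1a (7.38). At 28 weeks, replicate 6 of LF/HF was low for Acaa2 (11.01) and Eci1 (7.42), and it was the lowest mouse of its group for 14 members. In HF/HF of 28 weeks, replicate 9 was low for Slc25a20 (7.94), replicate 3 low for Eci2 (8.55) and replicate 2 high for Acot4 (7.67, next at 7.06).

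No member met the criterion for a diet difference that changed between the ages, but 11 of the 26, 26 and 27 genes of the further lists did, where 4.19% of all genes did, all 11 with an adjusted p of 0.97 (limma). The diet difference on the log2 scale was higher at 28 than at 12 weeks for Rxra (0.53), Txnip (0.50), Angptl4 (0.41), Acox3 (0.40), Mgll (0.38) and Pex26 (0.34). Pex26 was no longer called without replicate 6 of LF/HF or 3 or 4 of HF/HF at 12 weeks, or without replicate 7 of LF/HF or 1 or 4 of HF/HF at 28 weeks (0.24 to 0.31). The diet difference was lower at 28 weeks for Cyp4a10 (−0.93), Cyp4a32 (−0.61), Acot13 (−0.43), Acad10 (−0.38) and Hsd17b10 (−0.34).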

How the results depend on the processing

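The diet counts of 0 members became 1 at 12 weeks (Cpt1a) and 2 at 28 weeks within the second array-name series, and 1 at 28 weeks with the replicate block. The count for the change of the diet difference, also 0, became 1 with the replicate block, with array weights, without the mice with muscle markers and within the second series, and 2 within the first series and with no fold threshold. With age, 6 members in LF/HF became 2 within the first series and 3 by the adjusted p, and 3 members in HF/HF became 5 with no fold threshold and 0 by the adjusted p. Leaving out 1 mouse gave 0 to 1 members for the diet at either age, 0 to 2 for its change, 3 to 7 for age in LF/HF and 3 to 5 in HF/HF. The members' mean, leaving out 1 mouse, differed between diets by −0.02 to 0.05 at 12 weeks and −0.09 to −0.04 at 28 weeks, and between ages by 0.17 to 0.24 in LF/HF and 0.10 to 0.16 in HF/HF. The members' mean moved by less than 1 SD between mice of a group under each alternative run. That SD is larger than either diet difference and than the age difference in HF/HF, so a lost or reversed difference could also stay within it. Ppara gave 7 relations, 11 without the mice with muscle markers and 1 when centred by series. Of the 48 named pairs of gene and comparison, reversed were Cpt1a at 12 weeks within the first series (0.088 against −0.13) and Acadl at 28 weeks within the second (0.0011 against −0.10). Outside these pairs, Pdk4 with age in LF/HF also changed sign within the second series (0.81 against −0.32). Of 623 values of named genes under the alternatives that left out no single mouse, 558 kept direction and call, and the cause of the other changes was not tested.

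Mice of the same replicate number and age but different diet deviated together with a median r of −0.03 at both ages (highest 0.10). Of these mice, 1 of 7 and 1 of 9 correlated best with their own number. These values show no sign of pairs by number but cannot exclude them. In the order of the array names, the groups come in the same sequence as in the labels, so the numbers may follow the order of the arrays. That order was not tested mouse by mouse. With the replicate block, Acot3 met the criterion for the diet at 28 weeks (−0.62; limma, adjusted p = 0.97) and Acot4 for its change (−0.51; limma, adjusted p = 0.99), and no count with age changed.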
